A study of Mus musculus with 136 samples.

Results

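The visceral yolk sac encloses the early mouse embryo and feeds it before the placenta is at work. Its outer layer, the visceral endoderm, takes up maternal material by endocytosis and secretes serum proteins and lipoproteins, while its inner mesodermal layer forms the blood islands, where primitive red cells and the first vessels arise side by side. During the early somite stages these red cells fill with embryonic hemoglobin and begin to enter the embryo's circulation.

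The stage change in this tissue was measured in 33 yolk sacs from normal pregnancies, of 136 libraries in the series, chosen by their titles as yolk sacs of control dams of the NOD strain. All were dissected at E8.5, and each was staged by the somite pairs of its own embryo, since somite pairs are added one after another as development proceeds. The earlier group held 17 yolk sacs, 11 with 5 and 6 with 6 somite pairs, and the later group held 16, of which 7, 4 and 5 had 7, 8 and 9 somite pairs. The NOD (non-obese diabetic) strain develops diabetes spontaneously, and the dams used here were its normoglycemic females, with blood glucose between 105 and 164 mg/dl at euthanasia. No allele, transgene or drug is given for any group. The earlier group had 9 male and 8 female concepti and the later group 8 of each. The yolk sacs came from 10 litters, 7 of which held both stages, and each library was made from 1 yolk sac. Other groups of the series were used only for comparison: 33 yolk sacs from diabetic NOD dams, staged in the same way, and the 33 embryos of the same normal concepti. Both of these held 17 samples at 5–6 and 16 at 7–9 somite pairs.

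Libraries were made from 3′ ends of mRNA and counted as unique molecular identifiers (UMIs), so that each count stands for 1 captured molecule. Totals ran from 1033350 to 3549343 counts, with medians of 2115652 for 5–6 and 2122101.5 for 7–9 somite pairs (permutation test, two-sided p = 0.537). Levels are given below as normalized counts, that is, counts divided by a size factor for each library. A gene is called raised or lowered when the quasi-likelihood test of edgeR gave an adjusted p under 0.05 over all genes tested, and fold changes are later over earlier stage, on the log2 scale with the standard error (SE). In whole yolk sacs, fewer cells of a type and less RNA per cell cannot be told apart.

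Marker genes of the expected layers were present in every library. The 10 visceral endoderm markers summed to between 13916 and 36487 normalized counts at the earlier stage (median 19178) and to between 18618 and 46738 at the later stage (median 27557). The 6 endothelial markers summed to between 288.6 and 1028 (median 780.7) and between 538.8 and 929.8 (median 716.6). The endoderm sum thus had a higher median at the later stage, while the endothelial sum did not. The ratio of the endothelial to the endoderm sum had a median of 0.0421 for 5–6 and 0.0264 for 7–9 somite pairs (permutation test, p = 0.00164, 0.00328 adjusted over 4 measures of the libraries). Mitochondrial ribosomal RNA took a median of 3.81% of counts at the earlier stage (0.726% to 7.06%) and 2.42% at the later (1.34% to 4.88%; p = 0.00385, adjusted 0.00513). Globin transcripts took 0.376% (0.253% to 0.784%) and 0.766% (0.349% to 1.56%; p = 0.00012, adjusted 0.00048). These permutations treated the libraries as independent, although littermates share a dam.

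A pair of libraries stood apart. Replicate 8 of the 5–6 group had the lowest median correlation with the other libraries, 0.861, with the highest endoderm sum of its group (36487) and the lowest endothelial sum of all (288.6). Replicate 14 of the 7–9 group was next, at 0.906, with the highest endoderm sum of all (46738); the remaining libraries lay between 0.927 and 0.958. Replicate 13 of the 7–9 group is labelled female and its embryo male, so its somite number is in doubt. Counts and calls that moved without replicate 8, 13 or 14 are given below.

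**Figure D1:**
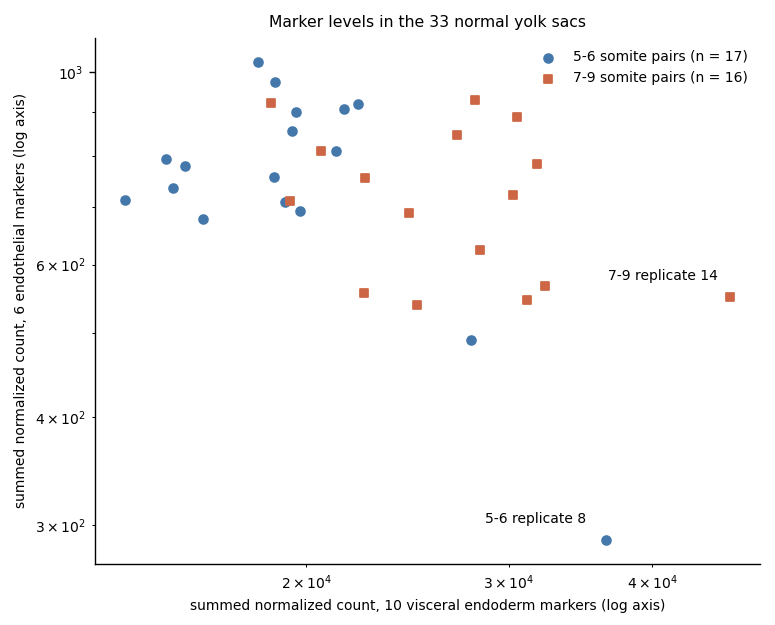
Summed normalized counts of 6 endothelial markers against those of 10 visceral endoderm markers in the 33 normal yolk sacs, both on log axes; circles are 5–6 and squares 7–9 somite pairs. Replicate 8 of the 5–6 group lies at the bottom with 288.6 endothelial and 36487 endoderm counts, and replicate 14 of the 7–9 group at the far right with 46738 endoderm counts.

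Between 5–6 and 7–9 somite pairs, 483 of 10013 genes tested were raised (4.82%) and 302 were lowered (3.02%). These shares are the background for the counts in each list below. Genes of blood, of visceral endoderm secretion and of vessels were among the raised, and the BMP targets Id1, Id2, Id3 and Smad6 among the lowered. No gene separated the stages completely: the number whose lowest library in one group lay above the highest in the other was 0 (0%). Without replicate 8 of the 5–6 group, 818 genes were raised and 679 lowered, and these included 482 of the 483 and 297 of the 302. Without replicate 13 of the 7–9 group the counts were 413 and 215, and without replicate 14 they were 424 and 257. Under scaling by total counts alone, 714 were raised and 149 lowered, so that raised genes made up 82.73% of the calls in place of 61.53%. Calls also followed the base composition of the transcripts. In the fifth of genes with the lowest GC content, 22 were raised and 87 lowered, and in the fifth with the highest, 179 were raised and 46 lowered. With trends on GC content and length removed, these became 59 and 42, and 134 and 129.

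The litters weighed unequally. Without the litter of dam N28M05, which held 1 yolk sac of the earlier and 4 of the later stage, 189 genes were raised and 55 lowered, and without that of dam N28M30 287 and 161. With litter as a replicate block 434 were raised and 242 lowered, of which 331 and 152 were among those called without the block. No gene called here was called in the opposite direction under any of these settings. Of the 102 called genes that were followed singly, 38 kept their call with each of the 10 litters left out in turn, 46 kept it without the litter of dam N28M05 and 62 without that of dam N28M30. Without replicate 13 of the 7–9 group 88 of the 102 kept it. Those that did not were Alas2, Nfe2, Stab2, Vim, Bco1, Scarb1, Bnip3, P4ha1, Slc19a1, Gm22748, mt-Rnr1 and 3 others, with adjusted p between 0.0536 and 0.0749. Without replicate 14 of that group 89 kept it, and Alas2, Nfe2, Stab2, Vim, Bco1, Slc19a1, Apoc1, Dcn and 5 others had adjusted p between 0.0536 and 0.0921. With the share of mitochondrial ribosomal RNA as a covariate 69 kept it. Among the losses in that fit, beside those given with their groups below, were Alas2, Trf, Scarb1, Stab2, Aplnr, Bnip3, P4ha1, Lss, Fth1, Plagl1, Ndn, Id1 and Bco1, with adjusted p between 0.0654 and 0.238. With GC content and length trends removed 84 of the 102 kept it. The losses there included Alas2, Soat2, Nfe2, Fcgrt and Scarb1, with adjusted p between 0.0512 and 0.109.

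Embryonic globins were among the genes that rose most. Hba-x, the embryonic zeta chain of hemoglobin, had between 1017 and 3811 normalized counts at 5–6 somite pairs (median 1292) and between 1823 and 7717 at 7–9 (median 4040). All 16 later yolk sacs lay above the earlier median, although the groups overlapped. The log2 fold change was 1.39 (SE 0.19, adjusted p = 2.37e-05, edgeR), a 2.62-fold rise. The medians at 5, 6, 7, 8 and 9 somite pairs were 1326, 1233, 3379, 3519 and 5421, higher at 7 than at 6 and again at 9 than at 8. Hbb-y, the embryonic epsilon-y chain, ran from 552 to 4016 (median 1218) and from 1029 to 13185 (median 3867), and rose by 1.39 on the log2 scale (SE 0.32, adjusted p = 0.00559). Its median reached 7056 at 9 somite pairs. Both genes were higher in the later littermates in 7 of 7 litters.

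The promoter of Hbb-y is shown because this gene carried one of the largest changes of the erythroid group. The sequence is from RefSeq, build GRCm38.p6, minus strand, chr7:103853217-103853457, and ends just before the first annotated transcribed base. Capitals mark the motifs searched on both strands, GATAA, the core bound by GATA factors, and CCACCC, the CACCC box bound by Klf1.
Hbb-y: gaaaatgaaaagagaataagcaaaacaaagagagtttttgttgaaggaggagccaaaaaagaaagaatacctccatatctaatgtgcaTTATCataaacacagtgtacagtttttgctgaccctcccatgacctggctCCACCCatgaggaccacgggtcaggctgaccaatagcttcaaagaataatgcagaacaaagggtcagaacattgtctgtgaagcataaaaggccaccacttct
It holds 1 match of each, the first on the opposite strand. Of the 10 erythroid genes called raised, 7 had a window in the RefSeq promoter table, searched here over the 250 bases before each start (the Hbb-y window printed above is the 241 bases of it that precede the annotated transcript). GATAA was found for 3 of these 7 and CCACCC for 5, while 25.5% and 30.6% of all 27025 genes in the table hold them. The motifs were not particular to this group: of the 8 serum protein and apolipoprotein genes searched below, 4 held GATAA and 5 CCACCC. A match is a description of the sequence and no evidence of binding.

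Of the 6 globins tested, 2 were raised and none lowered. The median log2 fold change of the 6 was 0.64, beside -0.03 over all genes tested. The other 4 had higher medians at the later stage without passing the test. Hbb-bh1, the embryonic beta-h1 chain, had medians of 4404 and 7836 (ranges 2385 to 15944 and 3399 to 18482; adjusted p = 0.0652). The adult chain gene Hba-a1 had medians of 359 and 535 (adjusted p = 0.0864), and the adult beta genes Hbb-bs and Hbb-bt had adjusted p of 0.381 and 0.219. Hba-a1 and Hba-a2, and Hbb-bs and Hbb-bt, are nearly identical pairs whose counts the alignment may divide, so their levels are uncertain. Without replicate 8 of the 5–6 group, which had the highest globin share of its group (0.784% of counts), all 6 were raised, with adjusted p of 0.00492 for Hbb-bh1. Replicate 14 of the 7–9 group had the highest globin share of the later group (1.56%), and without it the 2 called globins kept their call. With the ratio of endothelial to endoderm markers as a covariate, 1 of 6 was raised.

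Other genes of the red cell moved unevenly. In heme synthesis 4 of 13 genes tested were raised and none lowered (median 0.30). They included Alas2, which catalyses the first step in red cells, Ppox, a later enzyme of the pathway, and Slc25a38, the mitochondrial glycine carrier. Alas2 had medians of 87.7 and 143 (log2 fold change 0.61, SE 0.19, adjusted p = 0.0418). Without replicate 8 of the 5–6 group 6 of the 13 were raised.

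Of 12 erythroid transcription factors tested, 3 were raised, 0 were lowered and the median was 0.03. Gata1, the master regulator of the lineage, had medians of 35.2 and 47.3 (log2 fold change 0.49, SE 0.14, adjusted p = 0.0195). Lyl1, a helix-loop-helix factor, rose by 0.76 (SE 0.21, adjusted p = 0.0192), and Nfe2 by 0.53 with an adjusted p of 0.0496. Klf1, which activates globin genes, had nearly equal medians of 83.6 and 84.9 (log2 fold change 0.04, 95% interval -0.28 to 0.36). With litter as a block Gata1 (adjusted p = 0.0599), Nfe2 (0.153) and Ppox (0.0724) were not called. Without the litter of dam N28M05, 0 of the 3 factors kept their call, and with the share of mitochondrial ribosomal RNA as a covariate 0 did.

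Of 7 hematopoietic progenitor genes tested, 0 were raised and 0 lowered. Runx1, required for definitive blood stem cells, had medians of 52.5 and 39.1 (log2 fold change -0.51, SE 0.17, adjusted p = 0.0568) and was lowered without replicate 8 of the 5–6 group (adjusted p = 0.0172). It was lower in the later littermates in 7 of 7 litters. Kit, the stem cell factor receptor, had medians of 24.1 and 13.4 (adjusted p = 0.455). Of 12 megakaryocyte genes and 12 macrophage genes, 1 each had enough counts to be tested, and neither passed the test.

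**Figure D2:**
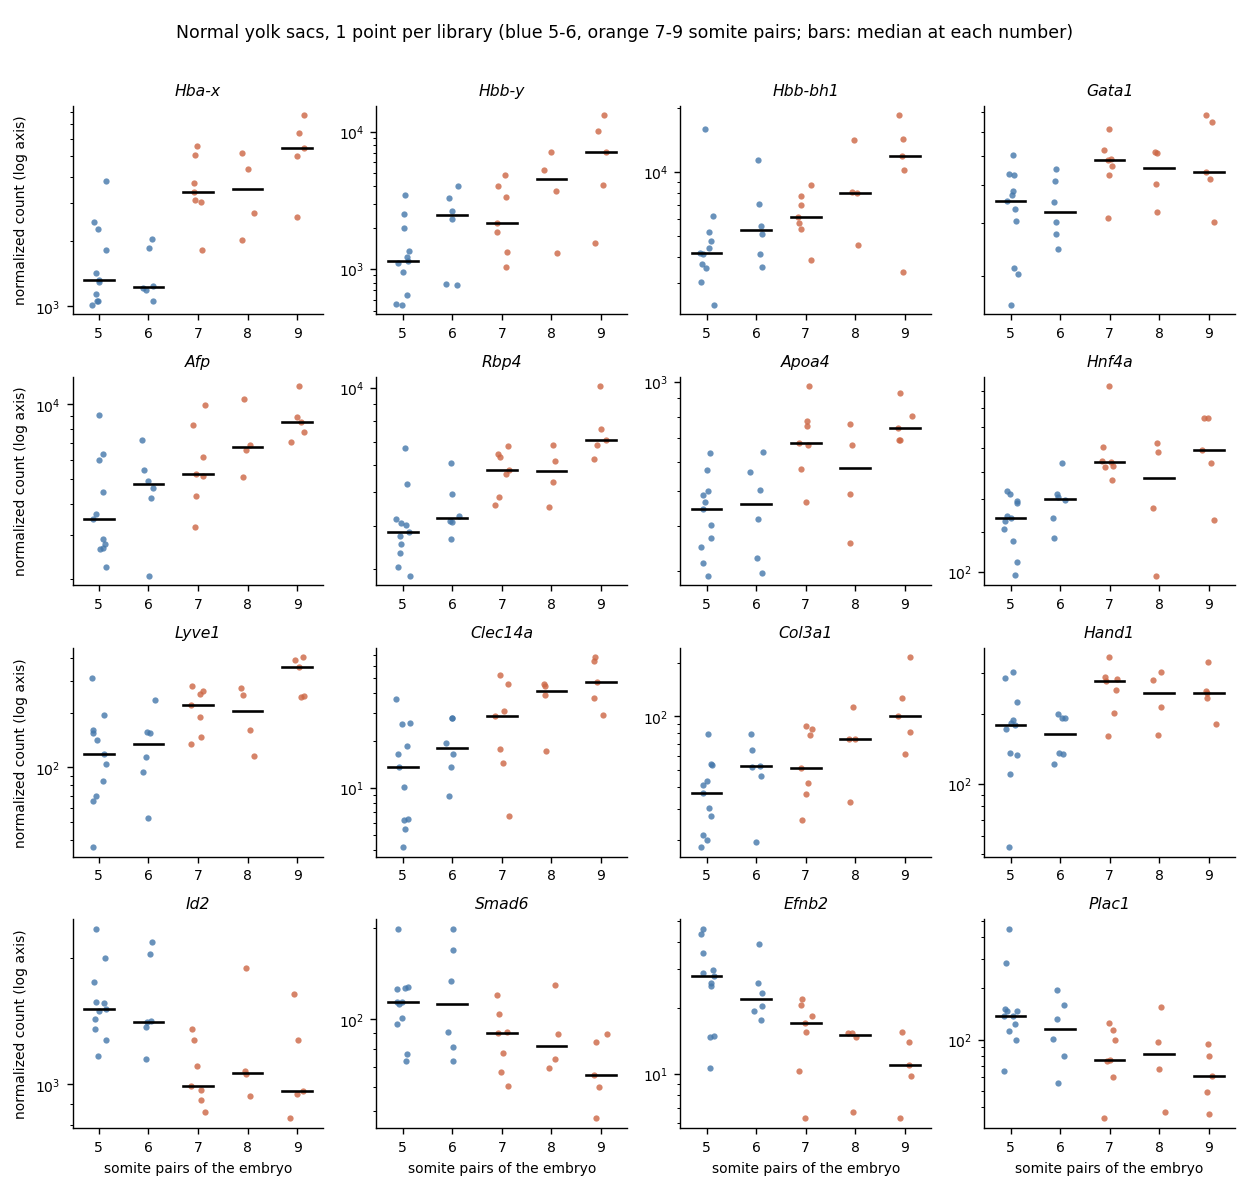
Normalized counts (log axes) of 16 genes in each normal yolk sac against the somite pairs of its embryo, blue for 5–6 and orange for 7–9; bars are the medians at each somite number. The median of Hba-x goes from 1233 at 6 to 3379 at 7 somite pairs, that of Gata1 from 32.6 to 48.6, and that of Efnb2 falls from 28.1 at 5 to 11 at 9, with libraries of both groups overlapping in every panel.

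Several secreted products of the visceral endoderm rose at the later stage. Of 12 secreted serum proteins tested, 5 were raised and 0 lowered, and all 12 had a positive log2 fold change (median 0.43). Afp, alpha-fetoprotein, ran from 2049 to 9089 normalized counts (median 4205) and from 3223 to 11823 (median 6994), and rose by 0.73 on the log2 scale (SE 0.18, adjusted p = 0.00905). Its medians went up at each somite number, from 3464 at 5 to 8469 at 9. Rbp4, the carrier of retinol in blood, had medians of 4091 and 6276, with all 16 later yolk sacs above the earlier median (log2 fold change 0.59, SE 0.11, adjusted p = 0.000757). Fga, the alpha chain of fibrinogen, had medians of 94.4 and 158 (log2 fold change 0.78, SE 0.16, adjusted p = 0.00239). Trf, the iron carrier transferrin, rose by 0.47 and Serpinf2, the inhibitor of plasmin, by 0.6. Ttr, transthyretin, had medians of 4337 and 6120 and an adjusted p of 0.121, and was raised without replicate 8 of the 5–6 group (adjusted p = 0.00345). That library held 13323 counts of Ttr, the highest of its group, and replicate 14 of the 7–9 group held 13325, the highest of the later group. Without replicate 8 of the 5–6 group 8 of the 12 were raised. Without replicate 14 of the 7–9 group the 5 called genes kept their call.

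The promoters of Afp and Rbp4 are shown as those of called genes of this layer, and overlap with other transcripts was not checked. They are from RefSeq, build GRCm38.p6, and capitals mark the motifs searched on both strands: GTTAA, a short motif known from promoters of liver genes, and TATAAA, the TATA box. Afp lies on the plus strand, chr5:90490464-90490713, and Rbp4 on the minus strand, chr19:38125322-38125571. Neither window reaches the annotated gene, whose near end lies at 90490737 for Afp and 38125281 for Rbp4.
Afp: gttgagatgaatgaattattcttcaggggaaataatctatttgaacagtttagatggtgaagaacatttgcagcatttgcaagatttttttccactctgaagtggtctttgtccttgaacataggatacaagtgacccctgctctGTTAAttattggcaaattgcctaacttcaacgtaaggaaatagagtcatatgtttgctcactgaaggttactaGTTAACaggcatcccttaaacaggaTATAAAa
Rbp4: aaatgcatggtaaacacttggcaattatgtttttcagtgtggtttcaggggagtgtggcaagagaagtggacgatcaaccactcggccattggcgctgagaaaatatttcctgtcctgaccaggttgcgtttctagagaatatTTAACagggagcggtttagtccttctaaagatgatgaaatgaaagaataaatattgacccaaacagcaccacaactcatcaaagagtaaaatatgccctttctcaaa
Afp holds 3 matches of GTTAA, of which 2 overlap on opposite strands, and 1 of TATAAA, and Rbp4 holds 1 of GTTAA. Of 11 serum protein and apolipoprotein genes called raised, 8 were in the promoter table. GTTAA was found for 5 and TATAAA for 3 of these, and 24.3% and 14.3% of all genes in the table hold them. Of the 7 erythroid genes 1 held GTTAA and 2 TATAAA.

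Of 14 genes of apolipoproteins and lipoprotein assembly, 6 were raised and 0 lowered (median 0.36). Apoa4 ran from 292 to 640.4 (median 447) and from 359 to 972 (median 692), a log2 fold change of 0.64 (SE 0.12, adjusted p = 0.00145). The main proteins of high-density lipoprotein, Apoa1 and Apoa2, rose by 0.62 and 0.75 (adjusted p = 0.00801 and 0.00709). The small exchangeable apolipoproteins Apoc1 and Apoc2 rose by 0.6 and 0.85, and Soat2, which esterifies cholesterol for secretion, by 0.38. Apob, the structural protein of the larger lipoproteins, ran from 231 to 3023 (median 1907) and from 745 to 3301 (median 1432), with a log2 fold change of -0.21 (95% interval -0.67 to 0.24, adjusted p = 0.607). Apom, which carries sphingosine 1-phosphate, had an adjusted p of 0.0655, and 0.0114 without replicate 8 of the 5–6 group, when 9 of the 14 were raised. With litter as a block, Serpinf2 (adjusted p = 0.0812) and Apoc1 (0.108) were not called. Without the litter of dam N28M05 the 5 serum protein genes and 3 of the 6 apolipoprotein genes kept their call.

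Of 13 visceral endoderm transcription factors tested, 4 were raised and 0 lowered (median 0.14). Hnf4a, a nuclear receptor that drives the secretory program of this layer, had medians of 136 and 185 (ranges 98.5 to 183 and 97.9 to 282; log2 fold change 0.45, SE 0.1, adjusted p = 0.00559). Creb3l3, a membrane-bound activator of lipid genes, rose by 0.51 (SE 0.11, adjusted p = 0.00327). Gata4 and the coactivator gene Cited1 rose by 0.32 and 0.29, and lost their call with GC and length trends removed (adjusted p = 0.0674 and 0.158) and without the litter of dam N28M05. With the share of mitochondrial ribosomal RNA as a covariate Creb3l3 alone kept its call, and Hnf4a, Gata4 and Cited1 had adjusted p of 0.0747, 0.132 and 0.162. Gata6 and Sox17 had log2 fold changes of -0.21 and -0.14 and did not pass the test (adjusted p = 0.382 and 0.687).

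Genes of uptake were divided. Of 12 genes of endocytic receptors and their partners, 4 were raised and 1 was lowered (median 0.05). Folr1, the folate receptor, had medians of 226 and 355 (log2 fold change 0.51, SE 0.13, adjusted p = 0.0144), and Fcgrt, the neonatal Fc receptor, rose by 0.53. Lrpap1, the chaperone of Lrp2, rose by 0.4 and Scarb1, the receptor for high-density lipoprotein, by 0.39. Amn, which anchors the receptor cubilin at the membrane, fell from a median of 852 to 727 (log2 fold change -0.28, SE 0.08, adjusted p = 0.0314), and Cubn itself had medians of 609 and 808 (adjusted p = 0.191). With litter as a block Amn (adjusted p = 0.197), Folr1 (0.0883) and Fcgrt (0.148) were not called, and without the litter of dam N28M05 0 of the 5 kept their call. Of 18 lysosomal proteins 2 were raised, the cathepsins Ctsb and Ctsz (log2 fold changes 0.4 and 0.45), and 0 were lowered. The raised share was 11.11%, beside 4.82% of all genes tested.

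Retinoid genes had 3 of 8 raised: Rbp4, Dhrs3, which turns retinaldehyde back to retinol, and Bco1, which cleaves carotene. Dhrs3 had medians of 22 and 28.8 (log2 fold change 0.59, SE 0.15, adjusted p = 0.0104), and Bco1 of 24.4 and 34.7 (adjusted p = 0.0423). Among 10 iron-handling genes 2 rose, both subunits of ferritin: Ftl1 by 0.64 (adjusted p = 0.00491) and Fth1 by 0.36 (adjusted p = 0.0316, and 0.0799 with litter as a block). Without the litter of dam N28M05 0 of the 2 kept their call, and without that of dam N28M30 1 did. In cholesterol synthesis 2 of 19 rose (10.53%, beside 4.82% of all genes tested), with a list median of 0.00. One of them, Lss (lanosterol synthase), rose by 0.44 (adjusted p = 0.0284).

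The ratio of endothelial to endoderm markers differed between the stages, as given above, and its part in these results was not tested beyond a fit with it as a covariate. In that fit 830 genes were raised and 769 lowered. The endoderm sum is itself made of Afp, Ttr, Rbp4, Apoa1, Apoa4, Apob, Apom, Cubn, Amn and Hnf4a, so the fit adjusts these genes partly for themselves, and its counts for the endoderm lists are not given.

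In the vessels, 5 of 22 endothelial genes tested were raised and 0 lowered (median 0.23). Clec14a, a lectin of the endothelial surface, ran from 4.18 to 37 (median 16.4) and from 6.64 to 67.8 (median 38.2), a log2 fold change of 1.12 (SE 0.26, adjusted p = 0.00597). Lyve1, a hyaluronan receptor found on yolk sac endothelium, had medians of 118 and 248 and rose by 0.9 (SE 0.21, adjusted p = 0.00559), with 15 of 16 later yolk sacs above the earlier median. Stab2, another hyaluronan receptor, rose by 0.88, Aplnr, the apelin receptor, by 0.53 and Tek, the angiopoietin receptor, by 0.35. The general endothelial markers Pecam1, Cdh5 and Kdr had log2 fold changes of -0.21, 0.1 and -0.24 with SE of 0.1, 0.16 and 0.16 and did not pass the test (adjusted p = 0.204, 0.762 and 0.372). With litter as a block Tek (adjusted p = 0.102) and Aplnr (0.235) were not called, and without the litter of dam N28M05 2 of the 5 kept their call. With the marker ratio as a covariate 10 of the 22 were raised and 0 lowered, although Pecam1, Cdh5, Kdr, Tek, Tie1 and Emcn are themselves part of the ratio. The estimate for Kdr then changed sign, from -0.24 to 0.25.

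Mesodermal genes moved in both directions. Of 17 yolk sac mesoderm genes tested, 4 were raised and 1 lowered (median -0.10). Hand1, a helix-loop-helix factor needed for yolk sac vessels, had medians of 179 and 253 (ranges 53.4 to 304 and 161 to 350.2; log2 fold change 0.55, SE 0.15, adjusted p = 0.019). Matrix genes rose with it: Col3a1, a fibrillar collagen, by 0.88 (SE 0.23) and Postn, periostin, by 0.75 (SE 0.19), with adjusted p of 0.0137 and 0.00988. Within litters the later minus earlier difference on the log2 scale ran from 0.035 to 3.385 for Col3a1 and from 0.041 to 2.7 for Postn. Both were largest in the litter of dam N28M30. Vim, vimentin, rose by 0.38 and was not called with litter as a block (adjusted p = 0.141). Tagln, a smooth muscle actin-binding protein, fell from a median of 15.6 to 6.2 (log2 fold change -0.98, SE 0.27, adjusted p = 0.0178). Foxf1, Bmp4 and Col1a1 had log2 fold changes of -0.26, 0.42 and 0.31 and did not pass the test. Of the 5 called genes 2 kept their call without the litter of dam N28M30 and 3 without that of dam N28M05. With each of the litters left out in turn, 0 kept it throughout. Of 12 basement membrane genes 0 were raised and 0 lowered.

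A list of decidua markers had 3 of 4 tested genes raised: the matrix proteoglycans Lum and Dcn and the small heat shock protein Cryab. Lum, lumican, ran from 21.8 to 142 (median 56.8) and from 26.9 to 301 (median 124), and Dcn, decorin, had medians of 11.9 and 23.5 (log2 fold changes 1.04 and 0.85). These are also genes of fibroblasts. The sum of the 10 decidua markers ran from 71.4 to 245.8 at the earlier and from 73 to 466.4 at the later stage, with the highest sum of each stage in replicates 8 and 14. Of the other markers, Pgr, Hoxa10, Hoxa11 and Mgp had medians of 0 at both stages. Prl8a2, a decidual prolactin, had too few counts to be tested, with medians of 1.26 and 2.84 and highest values of 13.9 and 31.5. Igfbp1, which decidua secretes, had medians of 21.4 and 17.3 and highest values of 120.6 and 65 (adjusted p = 0.256), and Des medians of 3.23 and 2.7. The part of maternal tissue in these changes was not tested. With the marker ratio as a covariate 0 of the 3 were raised, and with litter as a block Cryab was not called (adjusted p = 0.138). Without the litter of dam N28M30 0 of the 3 kept their call, and without that of dam N28M05 1 did.

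In a list of signalling genes, the called falls were those of a few targets of BMP. Of 20 genes of hedgehog, BMP and VEGF signalling tested, 0 were raised and 4 lowered (median -0.07). They were the inhibitors of differentiation Id1, Id2 and Id3, which are direct BMP targets, and Smad6, a feedback inhibitor of the pathway. Id2 ran from 1153 to 2356 (median 1499) and from 829 to 1902 (median 1023), a log2 fold change of -0.49 (SE 0.11, adjusted p = 0.00495), and was lower in the later littermates in 7 of 7 litters. Smad6 had medians of 114 and 81 (log2 fold change -0.51, SE 0.14, adjusted p = 0.0223), and its median went down from 114 at 5 to 65.8 at 9 somite pairs. Id1 and Id3 fell by 0.39 and 0.41 on the log2 scale (adjusted p = 0.029 and 0.00697). All 4 kept their call with litter as a block, and 1 of 4 without the litter of dam N28M05. Other BMP genes of the list did not pass the test. Smad7 had -0.4 (adjusted p = 0.0976, edgeR), Bmp2 -0.23 (0.393), the receptor gene Bmpr1a -0.23 (0.128) and the ligand gene Bmp4 0.42 (0.128). Whether BMP signalling itself changed was not tested.

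Efnb2 (ephrin-B2), the ligand that marks arterial vessels, fell more than any of these. It ran from 10.7 to 46.1 (median 26) and from 6.27 to 22.1 (median 15.1), and no later yolk sac lay above the earlier median. The log2 fold change was -0.92 (SE 0.19, adjusted p = 0.00255). Among hypoxia response genes 0 of 12 were raised and 2 lowered: Bnip3, a mitophagy receptor, and P4ha1, a subunit of collagen prolyl hydroxylase (log2 fold changes -0.35 and -0.31, adjusted p = 0.0474 and 0.0443). Bnip3 lost its call with litter as a block (adjusted p = 0.111), and both lost it without the litter of dam N28M05 and without replicate 13 of the 7–9 group. Of 15 immediate early genes Ier2 rose by 0.77 (SE 0.19, adjusted p = 0.00868) and Klf6 fell by 0.42 on the log2 scale, with an adjusted p of 0.0186, and 0.0688 with litter as a block. Each is 6.667% of that list, beside 4.82% raised and 3.02% lowered among all genes tested.

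**Figure D3:**
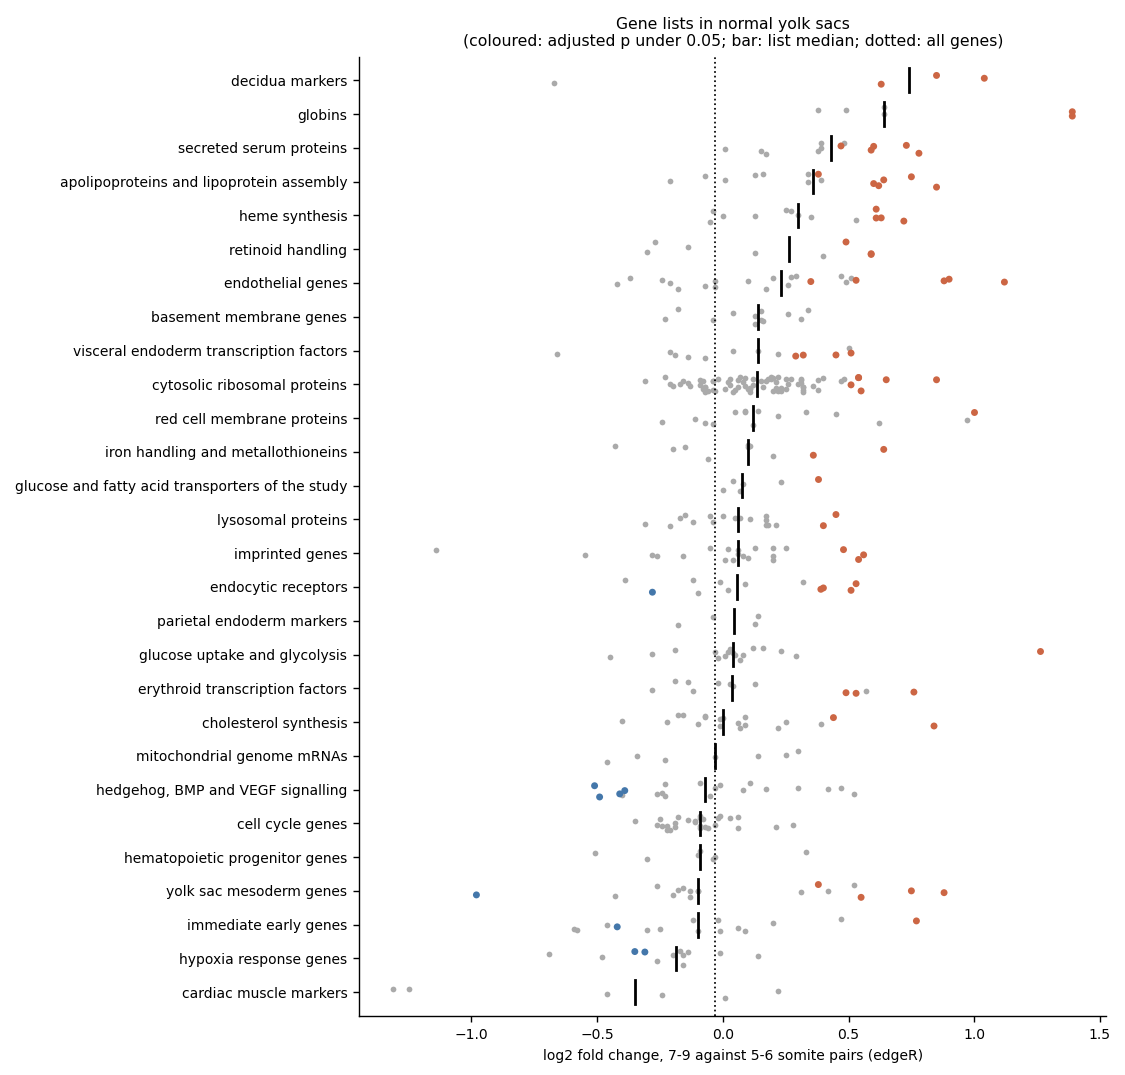
Log2 fold changes, 7–9 against 5–6 somite pairs, of the tested members of each list with at least 4 tested in normal yolk sacs; orange and blue points are called raised and lowered, grey points are not called, bars are list medians and the dotted line is the median of all genes, -0.03. Globins, serum proteins and apolipoproteins have medians of 0.64, 0.43 and 0.36, and hypoxia response genes of -0.18.

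Other groups moved little or unevenly. Imprinted genes had 3 of 21 raised and 0 lowered: the cell cycle inhibitor Cdkn1c (log2 fold change 0.48, SE 0.13), the zinc finger factor Plagl1 (0.56, SE 0.17, adjusted p = 0.0691 with litter as a block) and Ndn, necdin (0.54, SE 0.14). Of 28 cell cycle genes 0 were raised and 0 lowered (median -0.09). Among 78 cytosolic ribosomal protein genes 6 were raised and 0 lowered (median 0.13), a raised share of 7.692% beside 4.82% of all genes tested. Without replicate 8 of the 5–6 group 27 were raised, but with the marker ratio as a covariate 1 was, and 11 were lowered. Ribosomal protein genes have many processed copies in the genome, so their counts are uncertain, and with litter as a block 1 of the 6 kept its call. Of 7 mRNAs of the mitochondrial genome 0 were called, while the ribosomal RNAs mt-Rnr1 and mt-Rnr2 fell by 0.70 and 0.73 on the log2 scale (adjusted p = 0.0449 and 0.0235).

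Of the glucose and fatty acid transporters examined in the study, 6 had enough counts to be tested and 1 was raised: Cpt2, which completes the entry of fatty acids into mitochondria (log2 fold change 0.38, SE 0.11, adjusted p = 0.0235). Cpt2 lost its call without the litter of dam N28M05 (adjusted p = 0.0758), without that of dam N28M30 (0.0615) and with the marker ratio as a covariate (0.125). Slc2a3 (Glut3) had medians of 6966 and 7190 with a log2 fold change of 0.08 (95% interval -0.06 to 0.22). Slc2a1 (Glut1) had medians of 2007 and 2415 and did not pass the test (adjusted p = 0.0994), although it was higher in the later littermates in 7 of 7 litters. Among all 185 tested genes with a solute carrier symbol (Slc), 9 were raised and 3 lowered. These are 4.865% and 1.622%, beside 4.82% and 3.02% of all genes tested, shares that do not set the list apart. The list was taken by symbol and holds some genes that are not carriers. Among the raised these were Slc9a3r1 and Slc9a3r2, which encode regulators of a carrier, so the shares are not those of the carriers alone. Of those called, Slc22a18, an organic cation transporter, had the largest rise (0.9, SE 0.16, adjusted p = 0.000757), with medians of 10.9 and 26.9. Slc39a5, a zinc transporter, rose by 0.52, and Slc13a4, a sulfate transporter, by 0.33. The lowered were Slc44a1, a choline transporter (-0.5), Slc19a1, the reduced folate carrier (-0.32), and Slc25a3, the mitochondrial phosphate carrier (-0.28). With litter as a block 8 of these 12 kept their call. In glucose uptake and glycolysis 1 of 17 rose, Gapdh (5.882%, beside 4.82% of all genes tested).

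Tissues that a dissection could carry along were also examined. Of 12 cardiac markers 6 had enough counts, and 0 were called. Their sum reached 1741 in 1 earlier library against a median of 119.9 at both stages. Trophoblast markers summed to at most 798.5 for 5–6 and 344.7 for 7–9 somite pairs (medians 98.2 and 70.1), with 3 of 12 markers tested and 0 called. Those 3 had lower medians at the later stage: Tfap2c 24.3 and 1.75 (adjusted p = 0.384), Ascl2 12.6 and 2.26 (0.238) and Rhox6 55.7 and 54.1 (0.609). Elf5, a trophoblast stem cell factor with too few counts to be tested, had 3.98 and 0.37, and Gcm1 2.8 and 4.99. The giant cell and spongiotrophoblast genes Prl3d1, Prl2c2, Prl3b1, Tpbpa and Ctsq had medians of 0. Of 12 neural plate markers 0 had enough counts to be tested, and of 4 parietal endoderm and 1 paraxial mesoderm markers tested 0 were called.

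The 12 genes with the largest rises beside these groups were led by Krt7, a simple epithelial keratin, which ran from 1.33 to 50.9 (median 11.6) and from 7.68 to 88.3 (median 31.2; log2 fold change 1.44, SE 0.3, adjusted p = 0.00286). Fam122a, an inhibitor of protein phosphatase 2A, had medians of 6.63 and 17.2, and 14 of 16 later yolk sacs lay above every earlier one (log2 fold change 1.43, SE 0.19, adjusted p = 2.37e-05). Aplp1, an amyloid precursor-like protein, showed the same: 14 of 16 were above all 17 earlier yolk sacs, with medians of 15 and 32.3 (log2 fold change 1.03, SE 0.14, adjusted p = 2.37e-05). These came closest to a full separation of the stages among the genes named here. Cenpx, a centromere protein, and Sod3, the extracellular superoxide dismutase, each rose by 1.04 and had all 16 later libraries above the earlier median. Itga5, the integrin that binds fibronectin, rose by 1.15, and Tff3, a trefoil peptide, by 1.06 from a median of 6.19 counts. Gapdh, a glycolytic enzyme, rose by 1.26 (SE 0.25) from 78 to 149 counts, but this gene has many processed copies and its count is uncertain. Hba-x, Hbb-y, Clec14a and Lum complete the 12.

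The 12 largest falls included 6 protein-coding genes. Besides Tagln and Efnb2 these were Eif4ebp2, a repressor of cap-dependent translation, Plac1, a placental gene of the X chromosome, Bbc3, the p53 target that encodes Puma, and Maml3, a coactivator of Notch. Plac1 ran from 55.4 to 449 (median 138) and from 34.4 to 155 (median 75.5; log2 fold change -0.91, SE 0.22, adjusted p = 0.0087). The sum of the trophoblast markers also had a lower median at the later stage, as given above, and its part in the fall of Plac1 was not tested. Bbc3 had medians of 23 and 11.8, with no later yolk sac above the earlier median (log2 fold change -0.88, SE 0.2, adjusted p = 0.00495). Eif4ebp2 fell by 0.95 and Maml3 by 0.86 on the log2 scale. The others are noncoding genes, pseudogenes or unclassified models: Gm23935, annotated as a miRNA gene (log2 fold change -2.1, SE 0.47), the snoRNA Gm22748 (-1.08), Gm37204 and Gm37274, whose status is to be experimentally tested (-0.93 and -0.86), and the processed pseudogenes Gm14681 and Vcp-rs (-1.17 and -0.91). Gm23935 had a median of 31.5 counts and a highest value of 211 at the earlier stage, against 7.38 and 19.7. Pseudogene counts may hold reads of the parent genes, and with litter as a block Vcp-rs was not called (adjusted p = 0.0686). With the share of mitochondrial ribosomal RNA as a covariate Gm23935, Gm14681, Gm22748, Tagln, Eif4ebp2, Gm37204, Vcp-rs and Maml3 were not called, with adjusted p between 0.0562 and 0.363.

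By position (GRCm38, GENCODE M21), Krt7 lies at chr15:101411043-101430313, Fam122a at chr19:24476502-24477356, Aplp1 at chr7:30434982-30445535, Hba-x at chr11:32276400-32278116, Efnb2 at chr8:8617434-8661242 and Plac1 at chrX:53069995-53240111.

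Littermates share a dam, so the stages were also compared within the 7 litters that held both, as the mean difference of log2(normalized count + 1). Over 7 litters the two-sided exact sign-flip test cannot give less than p = 0.0156, and 759 of all 10013 genes tested reached it (7.58%). The 131 genes followed singly were chosen largely by the test on the same libraries, so their values here are a description. Aplp1 differed by 1.1 on average (SD 0.4 over litters), Hba-x by 1.4 (SD 0.47) and Fam122a by 1.17 (SD 0.83), each higher in the later littermates in 7 of 7 litters. Efnb2 differed by -0.93 (SD 0.39) and Plac1 by -0.91 (SD 0.66), lower in 7 of 7. Clec14a was higher in 6 of 7 litters (p = 0.0312, exact sign-flip test), the exception being the litter of dam N28M05. Vcp-rs was lower in 5 of 7, with p = 0.109 by the same exact test.

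**Figure D4:**
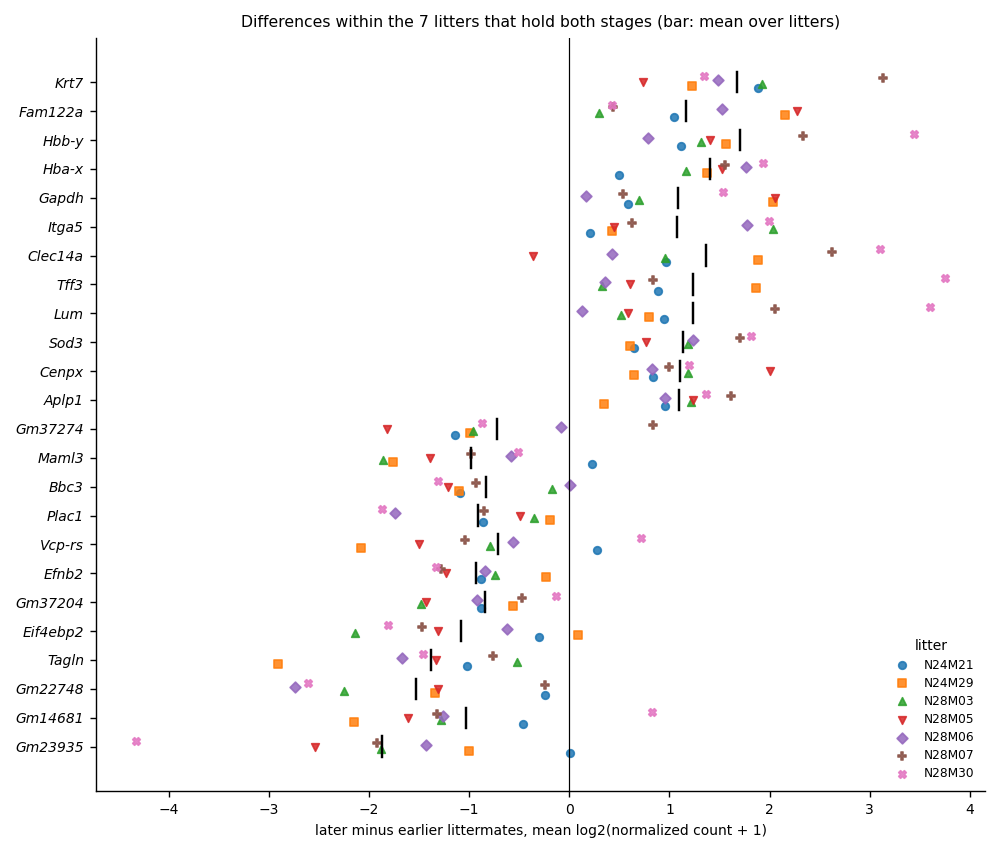
Mean log2(normalized count + 1) of the later minus that of the earlier littermates, for the 12 most raised and 12 most lowered genes, in each of the 7 litters with both stages (symbols); bars are means over litters and the line marks 0. Aplp1 and Hba-x lie right of 0 in 7 of 7 litters, Efnb2 and Plac1 left of it in 7 of 7, and Vcp-rs in 5.

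The diabetic yolk sacs, from other dams, let the same stage change be measured in separate animals. Several of these dams gave yolk sacs of only 1 stage, among them D28M53 (earlier only) and D28M31 (later only). Litter was not in the fit of the diabetic group, so dam and stage cannot be told apart for those litters. Dam D24M15 gave both stages, but mostly the later, and more later yolk sacs than any other diabetic dam. The weight of that litter was not tested. The yolk sac of conceptus D28M27C is labelled male and its embryo female, so its somite number is in doubt. In the diabetic yolk sacs, 1884 of 10469 genes were raised (18.0%) and 1641 lowered (15.7%). All 483 genes raised in normal yolk sacs were tested there, 482 had the same sign and 444 were raised (91.93%, beside 18.27% of all genes tested in both). Of the 302 lowered, 301 had the same sign and 251 were lowered (83.11%, beside 15.87%). The median log2 fold changes of the 483 were 0.52 in normal and 0.63 in diabetic yolk sacs. Hba-x rose by 1.76 (SE 0.25) in diabetic yolk sacs beside 1.39 (SE 0.19) in normal ones, Afp by 0.96 beside 0.73, and Lyve1 by 1.57 beside 0.9. Efnb2 had -0.94 beside -0.92. Some named genes did not pass there: Hand1 had 0.12 (adjusted p = 0.486), Gata4 0.12 (0.451) and Amn -0.12 (0.272). The difference itself was tested as an interaction of stage and maternal condition. Of 10857 genes, 0 passed it (0%) with edgeR and 0 with DESeq2, and 634 had an unadjusted p under 0.05 with edgeR.

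The embryos of the same concepti were a separate tissue at the same stages. There 656 of 10696 genes were raised (6.13%) and 959 lowered (8.97%). Of the 483 genes raised in yolk sac, 394 were tested in embryos, 352 had the same sign and 123 were raised (31.22%, beside 5.763% of all genes tested in both). Of the 302 lowered, 298 were tested, 257 had the same sign and 124 were lowered (41.61%, beside 9.427%). Both tissues of a conceptus share its somite number and dam. In embryos Hba-x rose by 3.33 (SE 0.48) and Hbb-y by 3.86 (SE 0.56), beside 1.39 and 1.39 in yolk sacs. The difference between the tissues did not pass the test for either (adjusted p = 0.0924 and 0.1), but passed it without replicate 8 of the 5–6 yolk sacs (0.0353 and 0.0488). With conceptus as a replicate block the differences were -1.29 and -1.68, against -1.95 and -2.48 without it, and did not pass (adjusted p = 0.235 and 0.169). Gapdh rose by 1.39, and Lum and Afp had -0.02 and -0.15 in embryos with adjusted p of 0.963 and 0.721. The paper cautions, for Slc2a2, that visceral endoderm is hard to strip fully from embryos, so that low embryo counts could come from yolk sac cells. The part of such carry-over in the embryo levels of endoderm genes was not tested.

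The interaction of stage and tissue passed the test for 5 of 11507 genes (0.0435%): Dusp9, Ephx2, Lef1, Sh2b2 and Gm10800. With conceptus as a replicate block 2 genes passed, and without replicate 8 of the 5–6 yolk sacs 163 did. With both, 163 passed again, 106 of them shared by the pair of fits. Dusp9, a phosphatase that inactivates MAP kinases, rose in the yolk sac by 0.48 (SE 0.1, adjusted p = 0.00345) and had -0.26 (SE 0.12, adjusted p = 0.12) in the embryo. The difference was 0.73 (SE 0.16, adjusted p = 0.048, and 0.0914 with the conceptus block).

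**Figure D5:**
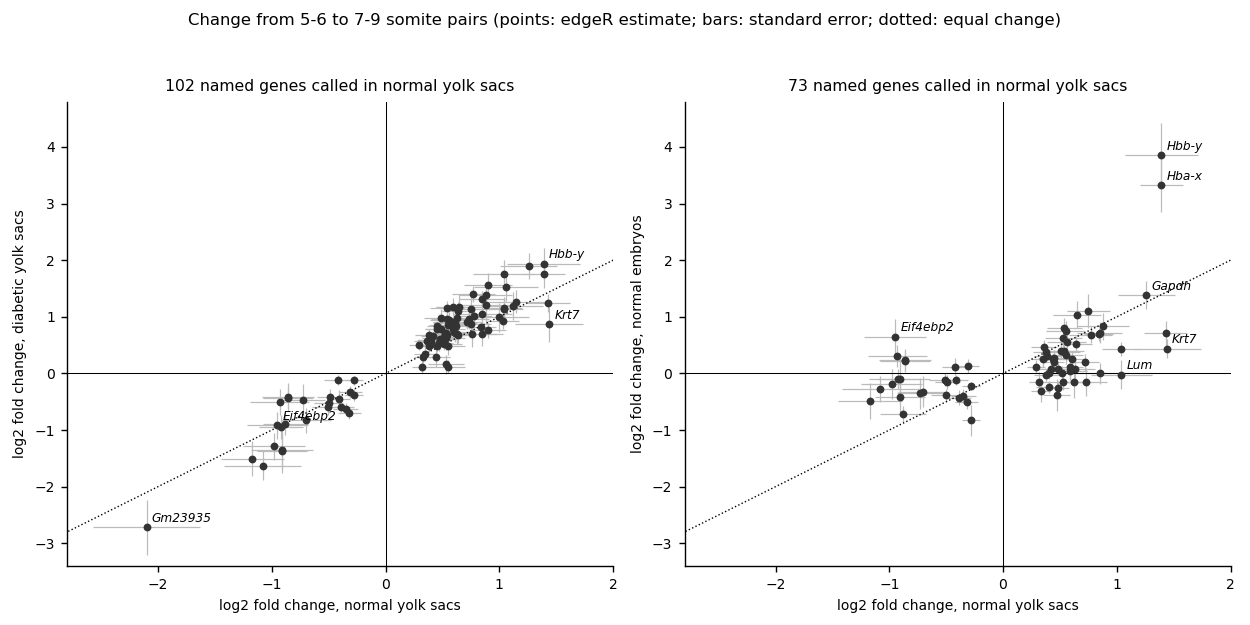
Log2 fold changes of named genes called in normal yolk sacs (x axes) against those in diabetic yolk sacs (left, 102 genes) and normal embryos (right, the 73 tested there); bars are standard errors and the dotted line marks equal change. Points on the left lie near the line, and on the right Hbb-y (3.86) and Hba-x (3.33) lie far above it.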

How the data were processed

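RNA of single yolk sacs and embryos was sequenced as 3′ libraries (QuantSeq FWD with UMIs). The authors deposited UMI counts per gene, without normalization, for 47643 genes in 136 libraries. The submitters' processing notes name STAR, HTSeq and build mm10, with neither versions nor an annotation given in the sources used here, and with no statement on strand. Overlapping and antisense genes can therefore share counts, and reads from near-identical copies can be split or lost.

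Groups were taken from titles, with the somite number of the embryo of the same title stem. Litters were libraries sharing the dam number in the title, which share 1 glucose value. The duplicate library of 1 yolk sac correlated with its original at 0.988 (the highest value between 2 of the 33 others was 0.98) and was left out. Symbols came from the deposit for 21592 genes and from GENCODE M21 for 25646. The members and gene lists were chosen with earlier results of these data known. Some list members are not reported here.

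Counts were tested with edgeR 4.0.16 (R 4.3.3; quasi-likelihood test, TMM scaling, filterByExpr with a minimum count of 10, Benjamini-Hochberg adjustment), without covariates. Normalized counts were counts divided by DESeq2 1.42.0 size factors. The measures of the libraries were compared with 100000 permutations of stage over all libraries, without regard to litter. Within-litter differences used an exact sign-flip test over 128 assignments, with a pseudocount of 1. Genes were followed singly if they were among the 12 called genes with the largest change in each direction (average level in either stage of 10 or more normalized counts, same sign with litter as a block), or if they were called or defining members of a list; 5 more were added because the difference between tissues turned on them. The fit was tested on simulated counts. Embryo and yolk sac of 1 conceptus are the same animal by label. Their deviations from the group means correlated between -0.311 and 0.498 over 33 pairs, with a median of 0.0769. Intervals are 95% intervals of the fit. Alternatives included DESeq2's Wald test, limma 3.58.1, other scalings and filters, litter blocks, covariates and libraries left out.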

Additional observations from a re-analysis of the deposited data

Results flagged for a closer look

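The stage change differed between yolk sac and embryo of the normal concepti for 5 genes, by the interaction test of edgeR over 11507 genes. A positive difference is a larger change in the yolk sac. Levels are normalized counts scaled over the 66 libraries of both tissues, so they differ slightly from those over yolk sacs alone.

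Dusp9 had a difference of 0.73 (SE 0.16, adjusted p = 0.048). Its medians went from 478.1 to 624.3 in yolk sacs and from 112.9 to 98.6 in embryos. Ephx2, an epoxide hydrolase of lipid metabolism, had a difference of 0.94 (SE 0.21, adjusted p = 0.0495), with medians of 66.8 and 75.9 in yolk sacs and of 13.8 and 9.24 in embryos. Neither passed with conceptus as a replicate block (adjusted p = 0.0914 and 0.0871).

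The other 3 genes were near 0 in later yolk sacs, so their differences depend on the prior count of the fit and are not fold changes to be read as sizes. Lef1, a transcription factor of the Wnt pathway, had a difference of -1.87 (SE 0.4, adjusted p = 0.048). Its yolk sac medians were 6.03 and 2.06, with 6 of 16 later libraries at 0, and its embryo medians 124.2 and 163. Sh2b2, an adaptor of receptor kinases, had a difference of -2.6 (SE 0.56, adjusted p = 0.048), with yolk sac medians of 3.15 and 0, 10 of 16 later libraries at 0, and embryo medians of 35.3 and 33.7. Gm10800, a predicted gene, had a difference of -4.89 (SE 0.8, adjusted p = 0.00055). It reached 245.4 in 1 earlier yolk sac against a median of 6.81 there, and had embryo medians of 12.3 and 17.9. With conceptus as a replicate block the adjusted p was 0.119 for Lef1, 0.119 for Sh2b2 and 0.0364 for Gm10800.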

How the results depend on the processing

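The comparison of the stages called 483 genes raised and 302 lowered. Counts that moved by more than 1.5 times are given here. The main fit treated littermates as independent libraries. Counts summed per litter and stage, with litter as a replicate block, gave 202 raised and 100 lowered. Of these, 169 were among the 483 and 66 among the 302. Libraries with title number 28 alone gave 254 and 117, and both of these fits had fewer samples. Leaving out a single litter or library gave between 189 and 818 raised genes and between 55 and 679 lowered; the extremes were the litter of dam N28M05 left out, and replicate 8 of the 5–6 group left out. Without that replicate and replicate 14 of the 7–9 group, 738 were raised and 566 lowered. With the share of mitochondrial ribosomal RNA as a covariate 304 were raised, and with the marker ratio as a covariate 830 were raised and 769 lowered. Lowered genes numbered 149 under total counts, 460 with DESeq2 and 141 without a filter on low counts. The causes were not tested. Litter as a replicate block alone gave 434 and 242, sex as a covariate 443 and 267, and the linear somite term 447 and 280. No scaling moved the median of all genes by more than 0.1 on the log2 scale.

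The difference between tissues passed for 5 genes, for 1 without a filter, 32 with litter as a replicate block, 2 with conceptus as a replicate block, 45 with DESeq2, and 163 without replicate 8 of the 5–6 group, with or without the conceptus block. The difference between normal and diabetic yolk sacs passed for 0 genes under each of its 4 alternatives. The change of Kdr, which was not called, reversed to 0.246 with the marker ratio as a covariate. Over 3893 comparisons of a gene followed singly with an alternative, 3273 kept direction and side of the threshold, 560 lost the call and 43 gained it. Alternatives with covariates for the libraries, without single libraries, and with GC and length trends removed were chosen after seeing the data. Depth limits the genes of few counts: 10013 of 25777 genes with a count in these yolk sacs were tested.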

Other observations

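Without replicate 8 of the 5–6 yolk sacs, the stage change differed between yolk sac and embryo for 163 genes, larger in the yolk sac for 101 and smaller for 62. The following were chosen after their values were seen. Pcbd1, an enzyme that regenerates tetrahydrobiopterin, had a log2 fold change of 0.54 in yolk sacs and -0.31 in embryos (difference 0.88, SE 0.16, adjusted p = 0.00247), and Mt1, a metallothionein, 0.31 and -0.37 (difference 0.69, SE 0.13, adjusted p = 0.0072). Apoe had 0.18 and -0.52 (adjusted p = 0.0134 for the difference). The part of yolk sac cells carried over into embryo libraries in such differences was not tested. Ccnd2, a D-type cyclin, had -0.37 in yolk sacs and 0.32 in embryos (difference -0.68, SE 0.14, adjusted p = 0.00878), and Zfp703, a zinc finger factor, -0.77 and 0.28 (adjusted p = 0.00959). All 5 also passed with conceptus as a replicate block in a fit that again left out replicate 8, with adjusted p between 0.00645 and 0.0184. With that block and all libraries 2 genes passed, both with the smaller change in the yolk sac, so Pcbd1, Mt1 and Apoe did not pass there.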
